A study of Saccharomyces cerevisiae with 21 samples.

Results

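RNA levels in pho4Δ yeast were set directly against those in pho84Δ yeast. The comparison rests on 4 RNA sequencing libraries of Saccharomyces cerevisiae, 2 from pho4Δ cultures and 2 from pho84Δ cultures, out of 21 libraries in all, and was described across all genes. The libraries were chosen by their column names. The series as a whole deals with transcription, coding and otherwise, at genes of the phosphate pathway. pho4Δ is named for the loss of PHO4 and pho84Δ for the loss of PHO84. The labels give no further alleles, markers or genotypes, and how the strains were made is not given in the sources used here. BY4741, the haploid MATa laboratory strain sequenced in the same series with 2 libraries numbered 4 and 5, is given last where it helps to place the other strains. All 6 cultures were grown at 30 °C to early exponential density in synthetic medium with 7.2 mM potassium phosphate, potassium chloride, leucine, histidine, methionine and uracil. The fit also used 3 libraries each of BY4741ΔU and ume6Δ from the same series. They served to estimate the spread and counted in the expression filter that set which genes were tested. The labels do not say what BY4741ΔU alters, and ume6Δ is named for the loss of UME6. The cultures of a strain were inoculated from a single overnight culture, so each strain stands for 1 isolate. The p-values rest on the spread between daughter cultures of the same strain, pooled over all strains of the fit.

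Pho4 is the transcription factor at the end of the yeast phosphate pathway. When phosphate is plentiful, the cyclin-dependent kinase Pho85 with its cyclin Pho80 phosphorylates Pho4, which then leaves the nucleus. When phosphate runs short, the inhibitor Pho81 blocks the kinase, and Pho4 binds CACGTG and related sequences together with Pho2 and switches on genes of phosphate uptake, secreted phosphatases and polyphosphate storage. PHO84 encodes the high-affinity phosphate transporter of the plasma membrane, and it is itself a target of Pho4. Cells without Pho84 are known to express phosphatase genes even in phosphate-rich medium. Neither strain should thus make Pho84, pho84Δ because the gene is gone and pho4Δ because its activator is, while Pho4 is present only in pho84Δ.

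The letters before the genes that carry the result are shown first. Windows were read from build R64 by its own annotation, since the deposited table holds no coordinates and names no build. Each line runs 5′ to 3′ along the gene's coding strand, with 20 bases on either side of the match and with CACGTG, a core sequence bound by Pho4, in capitals. The first 6 genes were lower in pho4Δ. PHO5 is shown from chrII:431179-431224 (minus strand), PHO89 from chrII:798820-798865 (minus), PHM6 from chrIV:1022575-1022620 (minus), GIT1 from chrIII:299098-299143 (minus), PHO12 from chrVIII:551796-551841 (plus) and PHO11 from chrI:225157-225202 (plus). VTC4 at chrX:413487-413544 (minus), PHO86 at chrX:192321-192366 (plus), DDP1 at chrXV:642573-642618 (plus) and GPP2 at chrV:280914-280959 (minus) carry the same letters, but their RNA did not pass the test between the strains.
PHO5: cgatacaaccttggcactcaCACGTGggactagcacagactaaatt
PHO89: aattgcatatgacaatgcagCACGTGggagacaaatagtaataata
PHM6: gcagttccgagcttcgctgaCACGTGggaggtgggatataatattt
GIT1: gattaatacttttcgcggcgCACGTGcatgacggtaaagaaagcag
PHO12: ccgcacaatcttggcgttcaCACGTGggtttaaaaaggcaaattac
PHO11: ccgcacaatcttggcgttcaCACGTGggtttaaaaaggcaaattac
VTC4: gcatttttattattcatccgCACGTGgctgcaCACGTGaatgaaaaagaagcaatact
PHO86: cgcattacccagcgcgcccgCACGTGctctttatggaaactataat
DDP1: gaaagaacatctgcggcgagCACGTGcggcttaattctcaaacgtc
GPP2: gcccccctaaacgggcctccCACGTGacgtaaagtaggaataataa
SPL2 is shown over 250 bases before and 50 bases after the first base of its start codon (chrVIII:375051-375350, minus strand), because it holds the densest run of matches.
SPL2: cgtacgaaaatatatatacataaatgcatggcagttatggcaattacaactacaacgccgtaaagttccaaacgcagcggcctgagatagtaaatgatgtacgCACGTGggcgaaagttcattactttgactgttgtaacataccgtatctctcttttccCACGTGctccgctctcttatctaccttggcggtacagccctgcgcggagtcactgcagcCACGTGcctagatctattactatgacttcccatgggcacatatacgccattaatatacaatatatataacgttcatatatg

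CACGTG lay within 1000 bases before the start codon in 7 of the 8 phosphate genes that fell and in 12 of the 15 that were not called, PHO84 included, against 613 of 5638 genes with a window (10.9%). CACGTG is its own reverse complement, so a match counts on both strands. The longer CACGTGG, searched on both strands and chosen after the letters were seen, lay in 6 of those 8 and 8 of those 15 windows, against 217 of 5638 (3.85%). CACGTT, a weaker site of Pho4 searched on both strands, lay in 8 of the 8, 9 of the 15 and 28.6% of all. In the shorter window of 250 bases before to 50 after the start, which was set first, CACGTG was found for 5 of 23 phosphate genes and 2.98% of all. There it lay in 1 of the 8 that fell and 4 of the 15 not called, the reverse order. CACGTT lay in 0 of the 8, 1 of the 15 and 9.1% of all in that window. Among the 20 genes that fell and are not in the phosphate list, 5 held CACGTG within 1000 bases. A match is a description of letters and not a measured binding site, and genes on both sides of the call carried them.

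The libraries held 13.2 and 17.3 Mreads (megareads) in pho4Δ, 13.9 and 25.9 Mreads in pho84Δ and 15.5 and 16.1 Mreads in BY4741. Levels are in RPM, the reads of a gene per Mread of its library. Differences are log2(RPM + 1) in pho4Δ minus pho84Δ, so a negative value means lower in pho4Δ, and they come with the standard error (SE) and the Benjamini-Hochberg adjusted p of limma. A gene is called, and written as having risen or fallen, where adjusted p was under 0.05. The markers URA3, LEU2 and MET17, which BY4741 lacks, had 0 reads in all 4 libraries. HIS3, which BY4741 lacks only in part, had reads in all of them, at 134 and 88.7 RPM in pho4Δ and 95.3 and 123 RPM in pho84Δ, against 112 and 141 RPM in BY4741. The alpha-factor receptor gene STE2 stood at 621 and 676 RPM in pho4Δ and 646 and 638 RPM in pho84Δ. Of the 4 alpha-specific genes, MF(ALPHA)2 had no reads, STE3 reached 1.43 RPM and MF(ALPHA)1 0.386 RPM at most, while SAG1 stood at 29.9 to 34.8 RPM, within its 24.8 to 36.7 RPM in BY4741.

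The deleted genes were checked before anything else. For PHO4, library 1 of pho4Δ gave 1 read (0.0757 RPM) and library 2 gave 2 (0.115 RPM), against 75.0 and 84.7 RPM in pho84Δ and 81.5 and 75.0 RPM in BY4741. It is thus close to absent in pho4Δ and at the BY4741 level in pho84Δ. For PHO84, pho4Δ gave a single read per library, or 0.0757 and 0.0577 RPM, and pho84Δ gave 2 reads per library, or 0.143 and 0.0771 RPM, against 136 and 130 RPM in BY4741. Both strains lacked PHO84 mRNA to within 3 reads, which is 0.116 to 0.227 RPM in these 4 libraries, so no fold is given for it. TUB3, an alpha-tubulin gene 353 bases from PHO84, stood at 192 and 203 RPM in pho4Δ and 202 and 203 RPM in pho84Δ.

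Between strains that share this loss, 29 of 5840 genes were called (0.497%). In pho4Δ, 28 of them were lower (0.479%) and 1 was higher, and 20 of the 28 fell by at least 1 on the log2 scale. Leaving out PHO4 itself and the pair COS5 and COS7, 95.6% identical in coding sequence, left 26. In all 29 the libraries of the strains did not overlap, which was also so for 46.2% of all genes tested. At an unadjusted p under 0.05 there were 389 genes, 232 lower and 157 higher in pho4Δ. The median difference over all genes was 0.00, and 98.2% of genes lay between -0.5 and 0.5. With 2 libraries on each side, an exact permutation test of a single gene cannot go below p = 0.333, so the calls rest on the spread that limma shares across genes and across the 12 libraries of the series, BY4741ΔU and ume6Δ included.

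**Figure D1:**
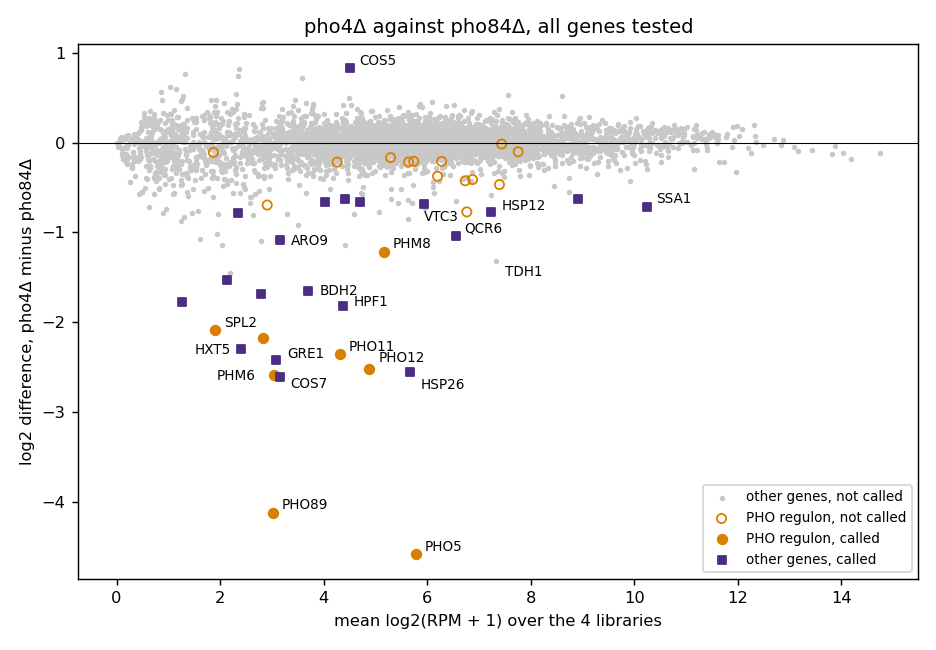
Log2 difference between pho4Δ and pho84Δ (y axis) against the mean log2(RPM + 1) over the 4 libraries (x axis), 1 point per gene tested; orange circles are phosphate-regulon genes (filled where called) and purple squares other called genes. PHO4 and PHO84 are not drawn because 1 or both strains had at most 2 reads. Every called gene lies below 0 except COS5 at 0.83.

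The phosphate genes were described by role from a list of 23 targets of the pathway, of which 22 had enough reads for a difference. In pho4Δ 8 of the 22 fell, none rose and 14 were not called, while 0.479% of all genes tested fell. All 22 differences were negative, against 49.3% over all genes. The median of the 22 was -0.45, against 0.00 for all genes. The summed level of the 23 was 1148 and 1141 RPM in pho4Δ and 1877 and 1816 RPM in pho84Δ, against 1625 and 1597 RPM in BY4741, where PHO84 alone gave 136 and 130 RPM. By role, 3 of 4 uptake genes, 4 of 7 phosphatase genes, 0 of 6 polyphosphate genes and 1 of 5 other targets were called. The list was written from general knowledge with earlier results of these data known, so its direction is a description.

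Among the uptake genes, PHO89 differed most. It encodes the sodium-coupled phosphate transporter of the plasma membrane. Its level was 1.14 and 0.751 RPM in pho4Δ, against 31.8 and 33.6 RPM in pho84Δ and 1.03 and 0.933 RPM in BY4741. The pho4Δ libraries thus sat with BY4741, and the pho84Δ libraries stood far above both. The difference was -4.12 (SE 0.32, adjusted p = 4.04e-06). Without the added 1 RPM, the mean RPM was 34.7-fold lower in pho4Δ, where the libraries gave 15 and 13 reads. These are averages over whole cultures, so less RNA in every cell and fewer cells with the RNA cannot be told apart. GIT1, a transporter of glycerophosphoinositol, showed the same arrangement, with 2.35 and 2.37 RPM in pho4Δ, 16.5 and 12.2 RPM in pho84Δ and 2.00 and 2.11 RPM in BY4741. Its difference was -2.18 (SE 0.19, adjusted p = 1.2e-05).

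SPL2, whose product represses the low-affinity phosphate transporters, was arranged differently. It stood at 0.606 and 1.04 RPM in pho4Δ, against 6.96 and 6.44 RPM in pho84Δ and 10.3 and 7.03 RPM in BY4741. Here pho84Δ lay just under BY4741 and pho4Δ lay far below both. The difference between the strains was -2.09 (SE 0.23, adjusted p = 0.000199). In the 1000 bases before SPL2 there are 4 CACGTG, 361, 147, 90 and 31 bases before the start codon, and the last 3 are in the window printed above. PHO86, which helps Pho84 leave the endoplasmic reticulum, was not called, at 68.3 and 74.4 RPM in pho4Δ and 82.5 and 82.6 RPM in pho84Δ (-0.21, adjusted p = 0.496).

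The gene of the main secreted acid phosphatase, PHO5, stood at 9.998 and 10.45 RPM in pho4Δ, against 276 and 261 RPM in pho84Δ and 14.7 and 11.3 RPM in BY4741. Its pho4Δ libraries were slightly below BY4741, and its pho84Δ libraries were far above all the others. The difference was -4.59 (SE 0.19, adjusted p = 2.9e-09). Without the added 1 RPM, the mean RPM was 26.3-fold lower in pho4Δ. With 0.25 RPM added in place of 1 RPM, and in edgeR, the log2 difference of PHO89 was larger than that of PHO5. Per kilobase of gene, PHO5 stood at 7.28 RPM per kb in pho4Δ and 191 RPM per kb in pho84Δ, while PHO89 stood at 0.547 RPM per kb in pho4Δ and 19.0 RPM per kb in pho84Δ.

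PHO11 and PHO12 encode minor secreted acid phosphatases. Their coding sequences differ at 4 of 1404 positions in R64 (99.7% identical), and the 46 bases printed above are the same in both, so reads may be split between them by the counting. PHO11 was listed at 8.33 and 7.22 RPM in pho4Δ, 41.5 and 46.4 RPM in pho84Δ and 15.1 and 15.3 RPM in BY4741, a difference of -2.36 (SE 0.22, adjusted p = 2.9e-05). PHO12 was listed at 10.1 and 12.5 RPM in pho4Δ, 69.7 and 69.6 RPM in pho84Δ and 45.2 and 34.3 RPM in BY4741 (-2.52, SE 0.30, adjusted p = 0.000362). Summed, the pair gave 18.5 and 19.7 RPM in pho4Δ, 111 and 116 RPM in pho84Δ and 60.3 and 49.6 RPM in BY4741. The sum does not depend on how reads were split within the pair, and on it BY4741 lay between the strains.

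PHM8, a nucleotidase and lysophosphatidate phosphatase, fell less, with 25.4 and 19.8 RPM in pho4Δ, 57.1 and 49.8 RPM in pho84Δ and 36.7 and 31.4 RPM in BY4741. BY4741 again lay between the strains, and the difference was -1.21 (SE 0.13, adjusted p = 0.000164). The other phosphatase genes were not called. PHO8, the vacuolar alkaline phosphatase, had 74.1 and 54.6 RPM in pho4Δ and 81.5 and 83.9 RPM in pho84Δ (-0.37, adjusted p = 0.519). GDE1, a glycerophosphocholine phosphodiesterase, differed by -0.22 (adjusted p = 0.802), and the acid phosphatase relative DIA3, at 1.89 to 3.29 RPM, overlapped between the strains.

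No gene of polyphosphate metabolism was called, although all 6 differences were negative, with a median of -0.30. VTC3, a subunit of the vacuolar polyphosphate polymerase, had the largest difference of them, at 79.4 and 85.3 RPM in pho4Δ, 147 and 135 RPM in pho84Δ and 182 and 164 RPM in BY4741. Its difference between the strains was -0.77 (SE 0.17, adjusted p = 0.0658), and in pho4Δ it fell below BY4741 (-1.06, adjusted p = 0.0126). VTC1, another subunit, had 93.7 and 88.2 RPM in pho4Δ against 116 and 129 RPM in pho84Δ (-0.42, adjusted p = 0.0589). VTC4, the catalytic subunit, had 140 and 144 RPM in pho4Δ against 202 and 192 RPM in pho84Δ (-0.47, adjusted p = 0.205). VTC2 (-0.10), the polyphosphatase gene PPN1 (-0.01) and the pyrophosphate hydrolase gene DDP1 (-0.17) were close to 0.

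Of the remaining targets, PHM6 was called. It is a gene of unknown function named for phosphate metabolism, and stood at 2.50 and 2.25 RPM in pho4Δ, 19.5 and 19.0 RPM in pho84Δ and 4.85 and 4.23 RPM in BY4741. The difference was -2.59 (SE 0.18, adjusted p = 1.66e-06), with BY4741 nearer to pho4Δ. PHM7 had 5.15 and 4.68 RPM in pho4Δ and 9.54 and 7.67 RPM in pho84Δ (-0.69, adjusted p = 0.228). The glycerol phosphatase gene GPP2 (-0.41, adjusted p = 0.27), the kinase inhibitor gene PHO81 (-0.21, adjusted p = 0.827) and the kinetochore gene CTF19 (-0.22, adjusted p = 0.924) were not called either.

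**Figure D2:**
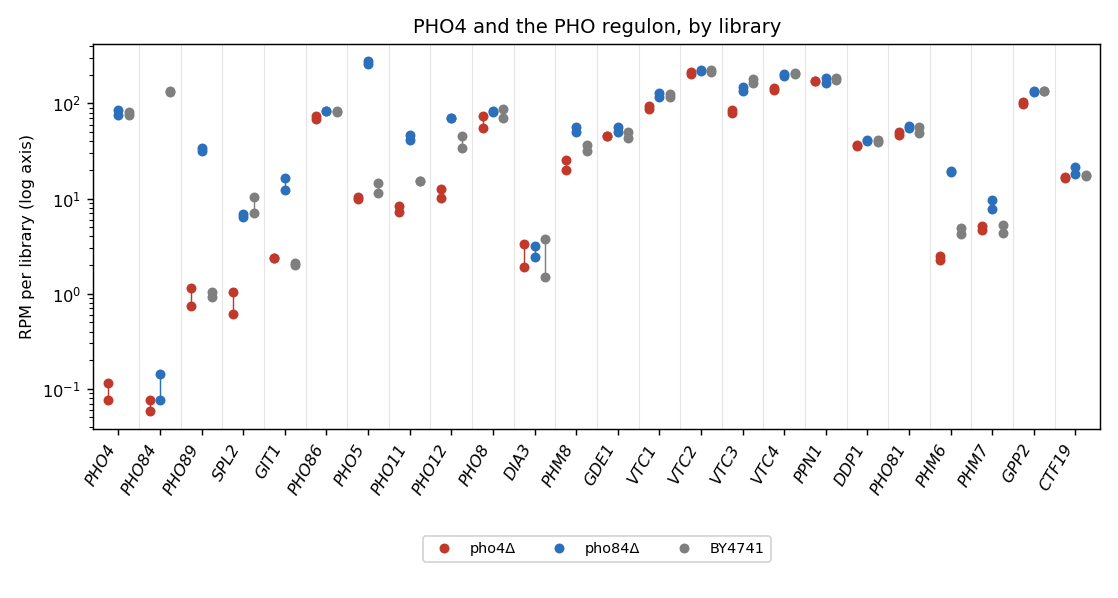
Level of PHO4 and of the 23 phosphate-regulon genes in each library, in RPM on a log axis, for pho4Δ (red), pho84Δ (blue) and BY4741 of the same series (grey), 2 libraries each joined by a line. PHO89, GIT1 and PHO5 have pho4Δ beside BY4741 and pho84Δ above, while SPL2 has pho84Δ beside BY4741 and pho4Δ below. The strains lie closer together for the vacuolar polyphosphate genes, though VTC1, VTC3 and VTC4 are lower in pho4Δ than in pho84Δ.

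The list of phosphate signalling and constitutive transport genes, PHO4 included, showed no such pattern. Of 14 with a difference, PHO4 alone was called. PHO2, the partner of Pho4, was at 42.0 and 45.6 RPM in pho4Δ and 48.4 and 44.8 RPM in pho84Δ. The cyclin gene PHO80 (-0.05), the kinase gene PHO85 (-0.02) and the inositol pyrophosphate kinase genes KCS1 (-0.06, adjusted p = 0.994) and VIP1 (-0.12) were near 0. So were the low-affinity transporter genes PHO87 (-0.04) and PHO90 (0.06), whose proteins Spl2 acts on, and the vacuolar phosphate transporter gene PHO91 (-0.10). PHO3, a constitutive acid phosphatase gene, stood at 142 and 136 RPM in pho4Δ and 132 and 142 RPM in pho84Δ. UME6, which encodes a repressor of meiotic genes, differed by -0.06.

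Outside the phosphate list and PHO4 itself, 19 genes fell and 1 rose. Apart from COS7, described further on, the largest fall was that of HSP26, a small heat shock protein gene, at 20.8 and 19.2 RPM in pho4Δ, 134 and 112 RPM in pho84Δ and 23.7 and 21.1 RPM in BY4741. The pho4Δ libraries lay just below those of BY4741, and the difference between the strains was -2.56 (SE 0.20, adjusted p = 4.3e-06). GRE1, a hydrophilin gene induced by many stresses, had 2.73 and 2.60 RPM in pho4Δ, 17.9 and 19.2 RPM in pho84Δ and 2.84 and 2.49 RPM in BY4741 (-2.42, SE 0.23, adjusted p = 3.3e-05). HPF1, a cell wall mannoprotein gene, had 9.16 and 11.03 RPM in pho4Δ, 44.7 and 32.4 RPM in pho84Δ and 11.1 and 5.28 RPM in BY4741 (-1.82, SE 0.25, adjusted p = 0.00146). In all 3, pho4Δ lay in or near the BY4741 range and pho84Δ stood above it.

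Of the 19, HXT5, BDH2, GND2 and TKL2 act in carbon metabolism. HXT5, a hexose transporter gene tied to slow growth, had 1.82 and 1.04 RPM in pho4Δ, 11.5 and 10.1 RPM in pho84Δ and 2.59 and 1.68 RPM in BY4741 (-2.30, SE 0.30, adjusted p = 0.00098). It was the only gene called of 10 hexose transport genes tested. BDH2, an alcohol dehydrogenase relative, had 5.91 and 6.81 RPM in pho4Δ and 22.8 and 21.4 RPM in pho84Δ (-1.65, SE 0.19, adjusted p = 0.000215). GND2, the minor isozyme of 6-phosphogluconate dehydrogenase, had 3.11 and 2.66 RPM in pho4Δ and 11.8 and 11.1 RPM in pho84Δ (-1.68, SE 0.23, adjusted p = 0.00123). TKL2, the minor transketolase, had 1.89 and 1.33 RPM in pho4Δ and 7.32 and 5.74 RPM in pho84Δ (-1.53, SE 0.31, adjusted p = 0.0435), a call that was lost in 9 of 14 other settings. Of 11 enzymes of the pentose phosphate pathway, a list added after values were seen, only GND2 and TKL2 were called, against 0.479% of all genes called lower. Others of the list, SOL4 and NQM1 among them, were not called. At an unadjusted p under 0.05, 5 of the 11 were lower and 1 was higher, and the highest difference was 0.31. The major isozymes GND1 (1531 and 1479 RPM in pho4Δ, 1538 and 1548 RPM in pho84Δ) and TKL1 (1364 and 1492 RPM in pho4Δ, 1484 and 1444 RPM in pho84Δ) were near 0 (-0.04 each).

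Of 26 environmental stress genes tested, HSP26, GND2, HSP12 and MSC1 fell, and 22 were not called. All 26 differences were negative, with a median of -0.57, and 20 had an unadjusted p under 0.05. Over all 5840 genes, 0.479% were called lower, 49.3% of differences were negative and 232 genes were lower at an unadjusted p under 0.05. HSP12, a membrane-associated stress protein gene, had 127 and 101 RPM in pho4Δ, 202 and 188 RPM in pho84Δ and 146 and 164 RPM in BY4741 (-0.77, SE 0.14, adjusted p = 0.0224). Among those not called, the catalase gene CTT1 had 19.0 and 15.7 RPM in pho4Δ and 33.2 and 28.4 RPM in pho84Δ (-0.79, adjusted p = 0.0589). The stress gene DDR2 had 15.8 and 11.1 RPM in pho4Δ and 32.1 and 29.0 RPM in pho84Δ (-1.14, adjusted p = 0.139). The summed level of the 26 was 2211 and 2085 RPM in pho4Δ, 3240 and 2918 RPM in pho84Δ and 3118 and 2629 RPM in BY4741, so that the pho4Δ cultures were the lowest. Against BY4741 the median of these genes was -0.37 in pho4Δ and 0.19 in pho84Δ, 2 values that share their BY4741 libraries.

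Among cytosolic chaperone genes, SSA1 and HSP82 fell. SSA1, an abundant Hsp70, had 971 and 934 RPM in pho4Δ, 1591 and 1539 RPM in pho84Δ and 1319 and 1395 RPM in BY4741 (-0.72, SE 0.12, adjusted p = 0.00835). HSP82, the inducible Hsp90, had 390 and 386 RPM in pho4Δ, 633 and 565 RPM in pho84Δ and 621 and 586 RPM in BY4741 (-0.62, SE 0.11, adjusted p = 0.0116). For HSP82 the pho84Δ and BY4741 libraries overlapped and pho4Δ lay below them. In a list of 16 cytosolic chaperone genes added after values were seen, these were the 2 called, the median was -0.32 and all 16 were negative. Over all genes, 0.479% were called lower and 49.3% were negative. HSP42, HSP104 and SSA4 of this list are in the stress list as well. Constitutive HSC82 differed by -0.21 (adjusted p = 0.688), and the disaggregase gene HSP104, at 365 and 340 RPM in pho4Δ and 550 and 481 RPM in pho84Δ, by -0.54 (adjusted p = 0.145).

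Genes of ribosome assembly and protein synthesis leaned the other way by a small amount, and none of them was called. The 25 ribosome biogenesis genes had a median difference of 0.17, all 25 positive, and 11 had an unadjusted p under 0.05, as had 157 higher genes of all 5840. Their sum was 7667 and 8015 RPM in pho4Δ and 6833 and 7067 RPM in pho84Δ, against 6410 and 6968 RPM in BY4741. The 25 cytosolic ribosomal protein genes had a median of 0.11, 24 of them positive. Their sum was 71310 and 71526 RPM in pho4Δ and 67094 and 66493 RPM in pho84Δ, against 73843 and 72899 RPM in BY4741. BY4741 was thus the highest and pho84Δ the lowest for the ribosomal protein genes. Against the shared BY4741 libraries their median was -0.05 in pho4Δ and -0.18 in pho84Δ. Of the 18 genes of the unfolded protein response and chaperones list, the same SSA1 and HSP82 were called. Of 14 metabolic targets of Ume6, CAR2 was called. Lists of 30 respiration genes (median -0.10), 20 ergosterol genes (0.00), 14 zinc regulon genes (0.02) and 13 MATa mating genes (0.01) had no called member. Nor had 29 amino acid genes under Gcn4 or 19 iron regulon genes, whose medians changed sign with the pho4Δ library used. The amino acid genes had a median of -0.06 with both libraries, -0.35 without pho4Δ 1 (28 of 29 negative) and 0.22 without pho4Δ 2 (28 of 29 positive). The iron genes had 0.06 with both, 0.14 without pho4Δ 1 and -0.13 without pho4Δ 2.

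**Figure D3:**
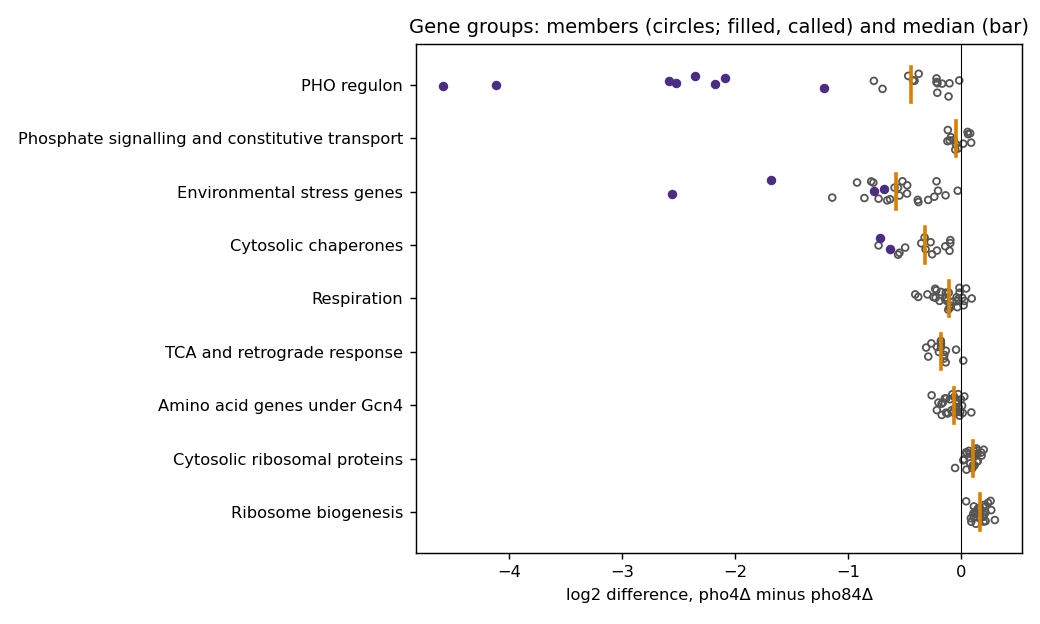
Log2 difference between pho4Δ and pho84Δ (x axis) for the members of 9 gene lists, 1 circle per gene, filled where called, with an orange bar at the list median. PHO4 is counted in its list's median but not drawn. The phosphate regulon (median -0.45) and stress genes (-0.57) lie left of 0 and ribosome biogenesis genes (0.17) right of it.

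QCR6, a subunit of respiratory complex III, was called and sits next to the deleted gene. It stood at 68.8 and 60.1 RPM in pho4Δ, 132 and 135 RPM in pho84Δ and 131 and 149 RPM in BY4741 (-1.04, SE 0.12, adjusted p = 0.000199). In R64 it is the next gene downstream of PHO4 on the same strand, 250 bases away. The CACGTG 257 bases before its start codon falls in the last bases of the PHO4 coding sequence. Among 9 complex III subunits, a list added after values were seen, QCR6 was the only gene called. The cytochrome gene CYT1 had 88.0 and 90.5 RPM in pho4Δ and 126 and 111 RPM in pho84Δ (-0.40, adjusted p = 0.133), and the other 7 lay between -0.24 and 0.10. The gene on the other side of PHO4, YFR035C, was under 1 RPM and not tested. A change at the locus and a change in the strain cannot be told apart for QCR6.

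ARO9, an aromatic aminotransferase gene, starts 608 bases from SPL2 and is read away from it, so the 4 CACGTG before SPL2 are also the 4 before ARO9. It stood at 6.89 and 3.75 RPM in pho4Δ, 11.8 and 12.1 RPM in pho84Δ and 8.66 and 8.77 RPM in BY4741. The difference was -1.08 (SE 0.20, adjusted p = 0.0223), and adjusted p ran from 1.22e-05 to 0.328 over the 14 other settings. Library 2 of pho4Δ was the lower of its pair, and both lay below BY4741. ARO8 (-0.11), ARO10 (-0.04) and ARO80 (-0.11), which act with ARO9 in aromatic amino acid breakdown, were not called.

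COS5 and COS7 moved in opposite directions. They belong to a family of subtelomeric membrane proteins, and their coding sequences differ at 51 of 1152 positions (95.6% identical), so reads may be split between them by the counting. COS5 was listed at 29.3 and 29.5 RPM in pho4Δ, 16.3 and 16.0 RPM in pho84Δ and 17.6 and 16.4 RPM in BY4741 (0.83, SE 0.12, adjusted p = 0.00166). COS7 was listed at 2.20 and 3.06 RPM in pho4Δ, 21.5 and 20.4 RPM in pho84Δ and 20.4 and 21.0 RPM in BY4741 (-2.61, SE 0.12, adjusted p = 1.09e-08). Their sum was 31.5 and 32.6 RPM in pho4Δ, 37.8 and 36.4 RPM in pho84Δ and 37.9 and 37.4 RPM in BY4741, and so differed far less than either gene. The other 10 tested members of the family were not called, with differences from -0.40 to 0.09.

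The remaining called genes changed less or were poorly expressed. YCL048W-A, a short gene, had 0.454 and 0.173 RPM in pho4Δ and 4.37 and 2.70 RPM in pho84Δ (-1.77, SE 0.27, adjusted p = 0.00374). CAR2, the ornithine aminotransferase gene, had 20.5 and 19.0 RPM in pho4Δ and 33.1 and 30.5 RPM in pho84Δ (-0.66, SE 0.14, adjusted p = 0.0482). YER053C-A (-0.78, adjusted p = 0.0435), MSC1 (-0.68, adjusted p = 0.0332), GID11 (-0.66, adjusted p = 0.0435), a substrate receptor of a ubiquitin ligase, and YHR033W (-0.63, adjusted p = 0.0332) completed the list. Leaving out a library ended calls among these and other genes, and in no case among the 8 phosphate genes, HSP26, GRE1, HXT5, HPF1, BDH2, GND2, QCR6, COS5 or COS7. The calls of ARO9, CAR2, GID11, HSP12, HSP82, MSC1, SSA1, TKL2, YCL048W-A, YER053C-A and YHR033W ended without pho4Δ 2 and without pho84Δ 1, when 18 genes were called in place of 29, and their highest adjusted p over all 14 other settings lay between 0.149 and 0.636. Without pho84Δ 2 there were 20 and without pho4Δ 1 there were 27.

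**Figure D4:**
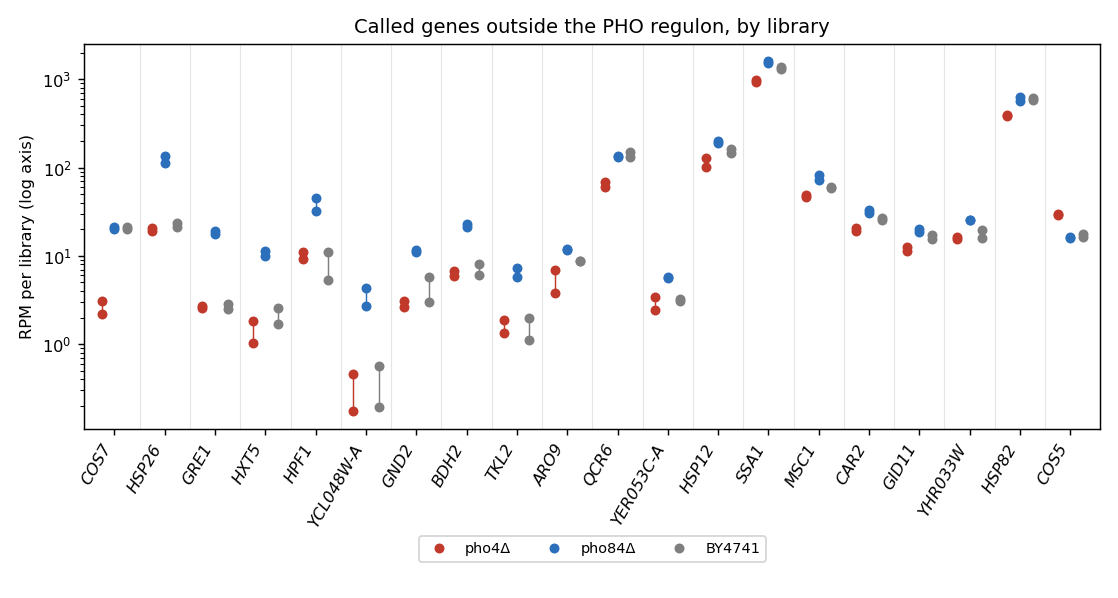
Level of the 20 called genes outside the phosphate regulon, other than PHO4, in each library, in RPM on a log axis, for pho4Δ (red), pho84Δ (blue) and BY4741 of the same series (grey), 2 libraries each joined by a line. HSP26, GRE1 and HXT5 have pho4Δ beside BY4741, COS7, QCR6 and HSP82 have pho84Δ beside BY4741, and COS5 is the gene with pho4Δ above both.

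A difference between the strains can come from either side, so each strain was also set beside BY4741. The genes were chosen by their call between the strains, and a missing call against BY4741 does not show that a strain is unchanged. These comparisons share the BY4741 libraries, so their values are given side by side and nothing is counted across them. Against BY4741, 13 genes were called in pho4Δ (0.223%) and 17 in pho84Δ (0.291%). PHO5 differed from BY4741 by -0.31 in pho4Δ (adjusted p = 0.573) and by 4.28 in pho84Δ (adjusted p = 1.51e-08). PHO89 differed by -0.04 in pho4Δ (adjusted p = 0.977) and by 4.09 in pho84Δ (adjusted p = 1.13e-05). The same was seen for GIT1, with 0.14 in pho4Δ (adjusted p = 0.816) and 2.31 in pho84Δ (adjusted p = 1.17e-05), and for HSP26, with -0.16 in pho4Δ (adjusted p = 0.794) and 2.40 in pho84Δ (adjusted p = 1.17e-05). PHM6, PHO11, GRE1, HXT5, HPF1, YCL048W-A, GND2 and BDH2 were also called above BY4741 in pho84Δ, by 1.26 to 2.42, and not called in pho4Δ. Both pho4Δ libraries of PHM6 and PHO11 nonetheless lay below both of BY4741, with PHO11 at -0.89 (adjusted p = 0.171). Reads of PHO11 may be split with PHO12, and the sum of that pair was below BY4741 in pho4Δ and above it in pho84Δ.

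Another set lay below BY4741 in pho4Δ and was not called in pho84Δ. SPL2 differed from BY4741 by -2.40 in pho4Δ (adjusted p = 0.000104) and by -0.31 in pho84Δ (adjusted p = 0.618). QCR6 differed by -1.11 in pho4Δ (adjusted p = 0.000192) and by -0.06 in pho84Δ (adjusted p = 0.858). PHO12 fell by 1.72 in pho4Δ (adjusted p = 0.031) and stood 0.81 above BY4741 in pho84Δ without a call (adjusted p = 0.329). HSP82 (-0.64 in pho4Δ, adjusted p = 0.0203, and -0.01 in pho84Δ) and COS7 (-2.59 in pho4Δ, adjusted p = 1.78e-08, and 0.02 in pho84Δ) belong here too. COS5 rose in pho4Δ (0.76, adjusted p = 0.011) and not in pho84Δ (-0.07, adjusted p = 0.842). The other called genes, PHM8, TKL2, ARO9, YER053C-A, HSP12, SSA1, MSC1, CAR2, GID11 and YHR033W, were called in the direct comparison but against BY4741 in neither strain. In these 10 genes apart from TKL2, the BY4741 mean lay between the strains, at less than 1 on the log2 scale from each.

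**Figure D5:**
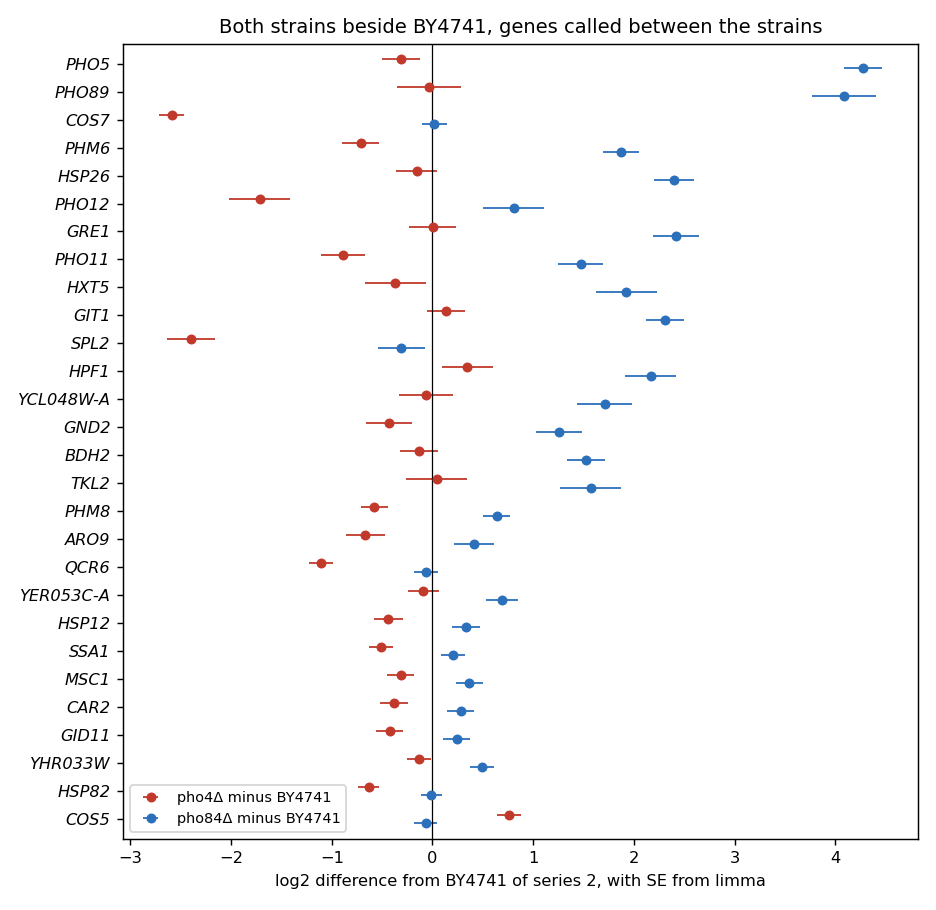
Log2 difference from BY4741 of the same series, with the SE from limma as bars, for the 28 genes other than PHO4 called between the strains, pho4Δ in red and pho84Δ in blue. PHO5 and PHO89 lie at -0.31 and -0.04 in pho4Δ and at 4.28 and 4.09 in pho84Δ, while SPL2, COS7 and QCR6 are displaced in pho4Δ and not in pho84Δ.

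The pho4Δ cultures differed from each other more than the pho84Δ cultures did. Between the pho4Δ libraries 23 of the genes tested differed by at least 1 on the log2 scale, and between the pho84Δ libraries 0 did. Of the 23, 21 were higher in pho4Δ 1 and 2 higher in pho4Δ 2. They include ARG1, of arginine synthesis (2260 and 828 RPM in pho4Δ, 1469 and 1711 RPM in pho84Δ) and the iron gene FET3 (160 and 340 RPM in pho4Δ, 224 and 175 RPM in pho84Δ). None of the 29 called genes is among them. The SD of the log2 difference over all genes was 0.196 between the pho4Δ libraries and 0.136 between the pho84Δ libraries. Between the strain means it was 0.152 over genes that were not called. Each strain mean averages 2 libraries and so carries less noise than a single library, so this last SD cannot be compared directly with the other 2.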

How the data were processed

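Per the labels' protocols, RNA was isolated from frozen cultures with a yeast kit, and libraries of purified mRNA were made with a stranded Illumina TruSeq kit. The submitters' processing notes name HISAT2, featureCounts and edgeR, without versions or roles. The build, the annotation and the strand setting are not given in the sources used here, so sense and antisense reads cannot be told apart. The authors deposited RPM per gene, with 7127 lines as read here, of which 7123 held values and 4 were empty. The lines with values fell short of a full library by 149 to 152 RPM in pho4Δ and pho84Δ. Dividing by the RPM of 1 read recovered whole reads (100% of values whole within 0.01 reads), and 3 reads or fewer were treated as the floor. Intervals are not given for single counts, and p-values cover only the spread between cultures of the same strain, pooled over the groups of the fit.

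limma 3.58.1 (R 4.3.3) was fitted to log2(RPM + 1) of the 12 libraries of series 2 (pho4Δ, pho84Δ, BY4741, BY4741ΔU and ume6Δ), with 5 group means, 7 residual degrees of freedom, variances following the mean, a filter of 1 RPM or more in 2 or more libraries, and adjustment over 5840 genes. A pseudocount of 1 RPM understates differences of genes near 1 RPM. Alternatives were edgeR 4.0.16 on recovered reads, which called 30 genes, DESeq2 1.42.0, limma-voom, other filters and scalings, fewer libraries and a replicate block. Symbols came from the table and R64, where 6044 identifiers matched and 5 symbols of another locus were replaced. Windows before genes were built from R64, as no promoter table was given.

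The comparison, its genes and the lists were chosen with earlier results of these data known, and 5 lists, CACGTGG and the window of 1000 bases were added after values were seen. Genes named were PHO84, PHO4, SPL2, UME6 and KCS1, all tested phosphate-regulon genes, the 10 largest called changes each way with mean log2(RPM + 1) of at least 3 in a strain and no overlap, up to 3 called members of each list, and neighbours of PHO84 and PHO4. Other named genes were chosen after their values were seen.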

Additional observations from a re-analysis of the deposited data

How the results depend on the processing

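All 29 called genes kept their direction under each of 14 other settings (28 of 28 tested where the filter was 5 RPM), and 18 were called in all of them. The number called was 63 with DESeq2 on recovered reads (61 lower and 2 higher in pho4Δ) and 60 with only the pho4Δ and pho84Δ libraries (57 lower, 3 higher), of which 29 and 27 were among the 29. Leaving out a library gave 18 to 27 genes, 17 to 26 of them lower. The cause of these shifts was not tested, beyond the smaller number of libraries where some are left out. Rescaling by TMM moved the median of all genes by less than 0.1. Phosphate-regulon calls ran from 8 to 12. The pho4Δ and pho84Δ libraries share only their numbers: the deviations of same-numbered libraries correlated at -0.189 across genes, with 2 pairs. A replicate block gave 24 genes (23 lower, 8 of the phosphate regulon), and the crossed pairing, added after seeing the data, also gave 24. With 2 libraries per strain and 1 isolate of each, no difference under 0.62 on the log2 scale was called, and near 1 RPM the added 1 RPM shrinks them.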

Other observations

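Genes outside the lists came close to the threshold, and all those nearest to it were lower in pho4Δ. SPS100, a spore wall gene, stood at 1.74 and 1.79 RPM in pho4Δ and 6.45 and 6.67 RPM in pho84Δ (-1.45, adjusted p = 0.0614). FMP16 had 3.94 and 3.58 RPM in pho4Δ and 9.11 and 9.21 RPM in pho84Δ (-1.10, adjusted p = 0.0716). GAD1, glutamate decarboxylase, had 44.1 and 37.1 RPM in pho4Δ and 69.5 and 60.6 RPM in pho84Δ (-0.67, adjusted p = 0.0605). None of them was called.

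TDH1, the minor glyceraldehyde-3-phosphate dehydrogenase, had a difference as large as some called genes, with 79.2 and 130 RPM in pho4Δ and 288 and 226 RPM in pho84Δ (-1.32, SE 0.39, adjusted p = 0.285). In BY4741 it stood at 134 and 65.2 RPM, so the libraries of 1 strain already differed by more than 2-fold. Of the 22 glycolysis and fermentation genes, 21 differences were negative with a median of -0.09, and none was called.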
